A study of Mus musculus with 3 samples.

Results

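The Hippo pathway genes described here are the co-activator genes Wwtr1, which encodes TAZ, and Yap1, the 4 TEAD transcription factor genes Tead1 to Tead4, the LATS kinase genes Lats1 and Lats2, and the MST kinase genes Stk4 and Stk3, which encode MST1 and MST2. They were taken by gene name from a table of 23393 mouse genes, and all 10 were found. The set was chosen by gene name with earlier results of these data known, in which the level of Wwtr1 was already among those farthest apart between stem cells and progenitors. All levels of these genes are therefore a description. The series profiled RNA of 3 populations sorted from the bone marrow of C57BL/6 mice, all from the LSK compartment, the lineage-negative cells with Sca-1 and c-Kit that hold stem cells and early progenitors. Multipotent progenitors (MPPs) were CD48+ CD150- and labelled Map17-GFP-. Hematopoietic stem cells (HSCs) were CD48- CD150+ and were divided by the Map17 reporter into a Map17-GFP- and a Map17-GFP+ fraction. Each population is represented by 1 library, which leaves no replicate error to judge a difference by, and no p-value is given. The sources used here give neither the age of the mice nor whether several were pooled.

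In the Hippo pathway, MST kinases with the adaptor SAV1 activate LATS kinases with the adaptor MOB1. LATS kinases phosphorylate YAP and TAZ, which are then held in the cytoplasm by 14-3-3 proteins or degraded. When the kinases are off, YAP and TAZ enter the nucleus and, having no DNA-binding domain, bind TEAD factors to switch on target genes. The pathway is best known for control of organ size and of responses to cell contact and stiffness in solid tissues. In blood cells MST1 is known from lymphocytes, where its loss impairs their survival and adhesion. Much of this control acts on the proteins, which RNA levels do not show. The symbol Taz in mouse gene tables stands for tafazzin, an unrelated gene, and TAZ is meant here only as Wwtr1.

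Each gene has a normalized count per library, called its level. Genes were compared on the log2 scale after adding 5 to each level, and the comparisons took in the 11951 genes that averaged 50 or more across the libraries. A gene was counted as apart when the values differed at least 2-fold on that scale. A fold given for a single gene is the quotient of its levels, with nothing added. The levels summed to 25311805 to 26689660 per library after the authors' scaling, and the sequencing depth is unknown. The genes of the sort markers followed the gates: Slamf1 (CD150) had a level of 17 in MPPs, 2144 in GFP- stem cells and 2219 in GFP+ stem cells, and Cd48 at 7744, 168 and 64. Pdzk1ip1, the gene of Map17, stood at 290, 3673 and 5659 in the same order.

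The co-activators separated stem cells from progenitors. Wwtr1 (chromosome 3, 57455644 to 57575910, GRCm38) was listed at 0 in MPPs, at 618 in GFP- stem cells and at 762 in GFP+ stem cells. No fold can be given against a library listed at 0, and a listed 0 need not mean absence, since the ribosomal protein gene Rpl26 was also 0 in all 3 libraries. On the log2 scale with 5 added, Wwtr1 ranked 4 of 11951 genes for GFP- stem cells against MPPs and 3 for GFP+ stem cells against MPPs. With 1 added it ranked 1 and 2, and with 20 added 16 and 15. Yap1 (chromosome 9, 7931999 to 8004638) was low throughout, at 5 in MPPs, 56 in GFP- stem cells and 70 in GFP+ stem cells. Its mean level of 43.7 was below the minimum for the comparisons, and its 11.2-fold and 14-fold higher levels in GFP- and GFP+ stem cells rest on a level of 5 in MPPs. Both HSC libraries were therefore above the MPP library for both co-activators. In a bulk library, fewer cells with a transcript and less transcript per cell cannot be told apart.

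TAZ was the main co-activator transcript in HSCs. Divided by the length of the longest GENCODE M21 transcript, Wwtr1 stood at 132 per kb and Yap1 at 10.6 per kb in GFP- stem cells, a ratio of 12.4. In GFP+ stem cells the levels per length were 162 and 13.3 per kb, a ratio of 12.2. With the mean length of all annotated transcripts in place of the longest, the ratios were 4.91 and 4.84, so the order of the 2 genes did not turn. Wwtr1 was still a transcript of modest abundance, with 25% of the compared genes at a lower level per kb in GFP- stem cells and 29.2% in GFP+ stem cells.

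**Figure D1:**
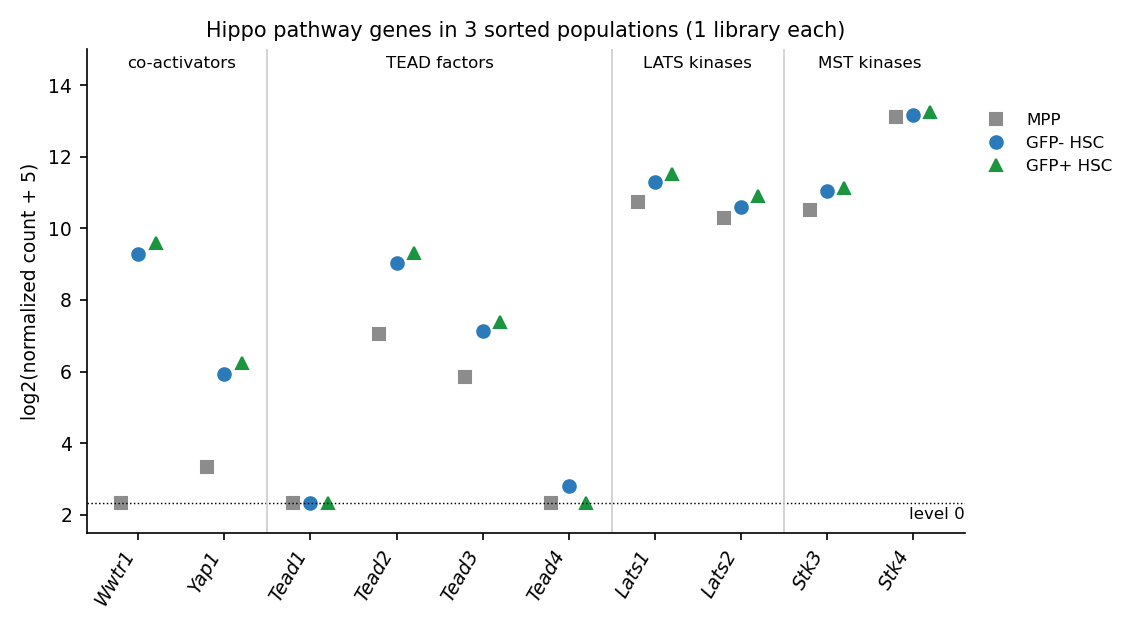
Levels of the 10 Hippo pathway genes on the log2(normalized count + 5) scale, with 1 point per library and population and the dotted line at a level of 0. Wwtr1 lies on the dotted line in MPPs and at 618 and 762 in the HSC libraries, Tead1 lies on it in all 3, and Stk4 is at 8853 to 9687 in all 3.

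The start of Wwtr1 is shown because no transcript was listed in MPPs, beside 618 and 762 in HSCs. The bases are the 250 before the first of 2 start sites in RefSeq (GRCm38.p6, minus strand, chr3:57575911-57576160), written 5′ to 3′. Capitals mark a match to GGAATG, the core of the sequence that TEAD factors bind, also known as the MCAT element, and CATTCC is the same core on the other strand. Such a core was searched on both strands in the 250 bases before each RefSeq start.
Wwtr1: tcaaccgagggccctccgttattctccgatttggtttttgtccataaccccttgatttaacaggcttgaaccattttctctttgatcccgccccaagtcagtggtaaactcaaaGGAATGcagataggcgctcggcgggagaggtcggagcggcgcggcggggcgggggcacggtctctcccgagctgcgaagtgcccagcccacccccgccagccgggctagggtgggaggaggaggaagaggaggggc

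The core of Wwtr1 ended 131 bases before that start site. Yap1 had 1 core, 136 bases before its start (minus strand, chr9:8004720-8004749), shown in a window of 30 bases because the co-activator genes share it.
Yap1: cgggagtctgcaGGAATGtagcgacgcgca

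Of the 10 genes, 7 had a RefSeq window, and 3 of these held the core, Wwtr1, Yap1 and Tead3. Tead2, Lats1, Lats2 and Stk4 held none in their windows, which says only that these letters are not there. Among all 32851 RefSeq windows of that length, 12.6% held the core, and 14.4% of the 27025 genes held it in at least 1 window. A match is a stretch of letters and was not tested for binding.

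Of the DNA-binding partners, Tead2 and Tead3 were present and Tead1 and Tead4 were listed at or near 0. Tead2 (chromosome 7, 45215792 to 45233468) had a level of 128 in MPPs, 514 in GFP- stem cells and 624 in GFP+ stem cells, which is 4.02-fold and 4.88-fold higher in the HSC fractions. Tead3 (chromosome 17, 28331671 to 28350805) stood at 53, 134 and 162, or 2.53-fold and 3.06-fold higher. Both HSC libraries were above the MPP library for both factors, and the HSC fractions lay close together. For Tead3 the log2 ratio of GFP- stem cells to MPPs was 1.26, and it was 0.90 after removal of the trend on mean level, under the 2-fold rule. Tead1 (chromosome 7, 112679356 to 112906784), the broadly expressed factor of solid tissues, was listed at 0 in all 3 libraries. Tead4 (chromosome 6, 128227143 to 128300813), known from the first lineage choice of the embryo, was listed at 0 in MPPs, 2 in GFP- stem cells and 0 in GFP+ stem cells.

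Tead2 was the leading TEAD transcript in each population. Per kb of the longest transcript it stood at 37.7 in MPPs, 151 in GFP- stem cells and 184 in GFP+ stem cells, and Tead3 at 15.4, 38.9 and 47.1. Tead2 thus made up 71% of the summed TEAD level per kb in MPPs and 79.3% and 79.6% in the HSC fractions. In HSCs Wwtr1 and Tead2 were of like abundance by this measure, with Tead2 1.15-fold above Wwtr1 in GFP- stem cells and 1.13-fold above it in GFP+ stem cells. That likeness depends on the length used: with mean transcript lengths Tead2 was 4.42-fold and 4.35-fold above Wwtr1. Exons of Tead2 share 13 bases with Cd37 on the opposite strand, and the library chemistry does not mark strand.

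The kinase genes differed less between the populations. By level per kb Stk4 was abundant, with 90.1% to 93.4% of the compared genes lower, whereas Lats1 (40% to 55.1%) and Lats2 (40.6% to 52.1%) were near the middle. Lats1 (chromosome 10, 7681200 to 7716461) had a level of 1701 in MPPs, 2522 in GFP- stem cells and 2934 in GFP+ stem cells, and Lats2 (chromosome 14, 57689662 to 57746212) at 1256, 1553 and 1910. The higher levels in GFP- stem cells were 1.48-fold for Lats1 and 1.24-fold for Lats2, and those in GFP+ stem cells 1.72-fold and 1.52-fold. Lats2 is itself a known target of YAP and TAZ, through which the pathway limits its own output. Of the exonic bases of Lats2, 2955 also belong to Gm49361, an overlapping model on the same strand, so its level is uncertain to that extent. Stk3 (chromosome 15, 34875499 to 35155882) stood at 1465, 2098 and 2210, which is 1.43-fold and 1.51-fold higher in the HSC fractions. Stk4 (chromosome 2, 164074113 to 164155524) was nearly level, at 8853, 9260 and 9687. Its log2 ratio was 0.06 for GFP- stem cells against MPPs and 0.13 for GFP+ stem cells against MPPs, and it was -0.15 and -0.08 once a trend with length and GC share of the transcript was taken out.

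Per kb of the longest transcript, the 4 kinase genes stood above the TEAD and co-activator genes in each library, and this did not hold in HSCs with mean lengths. In MPPs Stk4 led at 1692 per kb, followed by Stk3 at 445, Lats2 at 242 and Lats1 at 236, with Tead2 at 37.7, Tead3 at 15.4 and Yap1 at 0.947. In GFP- stem cells the order was Stk4 at 1770, Stk3 at 637, Lats1 at 350, Lats2 at 299, Tead2 at 151, Wwtr1 at 132, Tead3 at 38.9, Yap1 at 10.6 and Tead4 at 0.65. Without replicates it cannot be said whether neighbours in this order, such as Lats1 and Lats2, differ beyond the spread between libraries. In both HSC fractions Lats2 and Tead2 moved above Lats1 when mean transcript lengths were used, and the order in MPPs was the same under both lengths. The share of Stk4 in the summed MST level per kb was 79.2% in MPPs, 73.5% in GFP- stem cells and 73.4% in GFP+ stem cells. The 4 kinase genes thus lay within 1.72-fold between MPPs and either HSC fraction, while Wwtr1 was listed at 0 in MPPs.

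Among the Hippo genes that passed the minimum mean, Wwtr1, Tead2 and Tead3 were past the 2-fold rule in HSCs against MPPs. Of the 10 genes, 7 passed that minimum, and Yap1, Tead1 and Tead4 did not. For GFP- stem cells against MPPs, Wwtr1, Tead2 and Tead3 were 2-fold or more higher, 3 of 7, beside 11.6% of all genes compared, and 0 of 7 were 2-fold or more lower, beside 5.53%. For GFP+ stem cells against MPPs, the same 3 genes were 2-fold or more higher, beside 13.7% of all genes, and 0 were lower, beside 8.6%. These comparisons share the MPP library. Wwtr1 passed the minimum only through the HSC libraries, and the set was chosen with these values known, so the counts support nothing further. The median log2 ratio of the 7 genes was 0.57 in the first comparison and 0.78 in the second, beside -0.01 and 0.01 over all genes. Counted by any amount, 7 of 7 were higher and 0 lower in both, beside 49.2% higher and 50.6% lower of all genes in the first and 50.7% and 49.2% in the second.

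Between the HSC fractions the Hippo genes were slightly higher with the reporter on. The ratio of GFP+ to GFP- stem cells was 1.23 for Wwtr1, 1.25 for Yap1, 1.21 for Tead2, 1.21 for Tead3, 1.16 for Lats1, 1.23 for Lats2, 1.05 for Stk3 and 1.05 for Stk4. None of the 7 genes that passed was 2-fold apart, where 0.41% of all genes were 2-fold or more higher and 0.87% 2-fold or more lower. By any amount 7 were higher, beside 51.7% of all genes, and 0 lower, beside 47.8%, and their median log2 ratio was 0.26 beside 0.01 over all genes. The largest of their log2 ratios, 0.30 for Wwtr1, ranked 1287 of 11951, and the median absolute log2 ratio of all genes was 0.14. Whether differences of this size would recur in repeated sorts cannot be said from 1 library each.

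**Figure D2:**
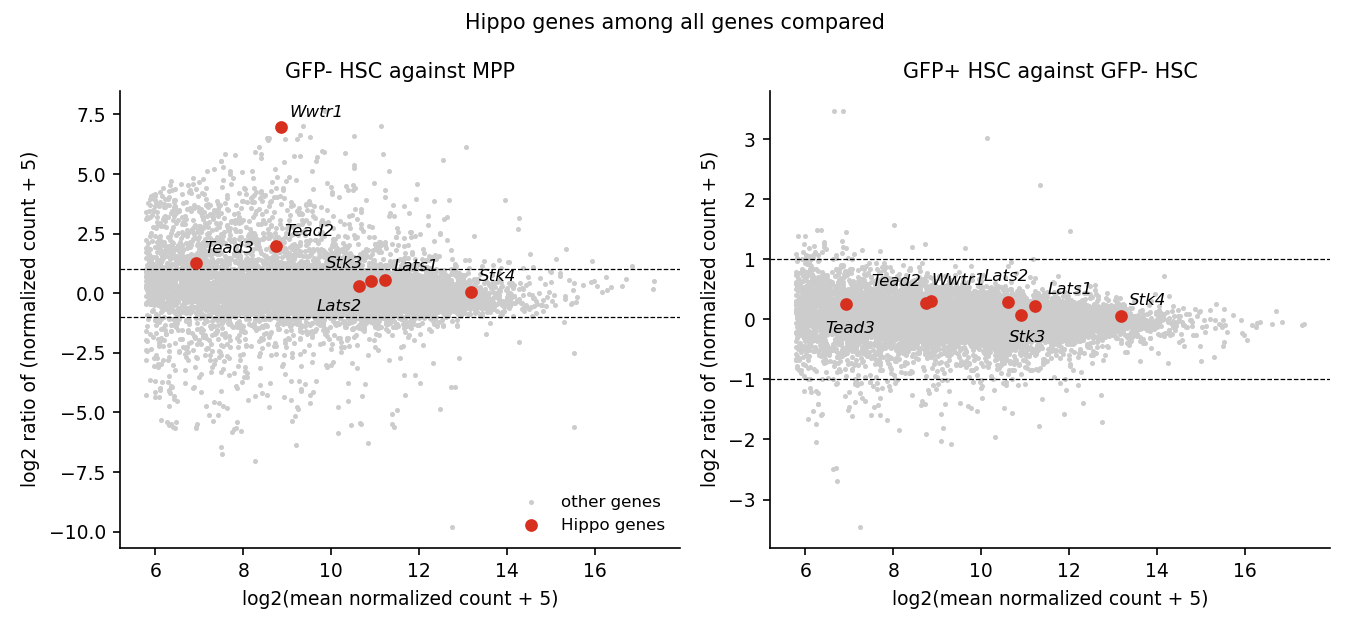
Log2 ratio of (normalized count + 5) against mean level for the 11951 genes compared (grey) and the 7 Hippo genes among them (red), for GFP- stem cells against MPPs at left and GFP+ against GFP- stem cells at right, with dashed lines at 2-fold. Wwtr1 lies near the top of the left panel at 6.96, and in the right panel the 7 genes lie between 0.07 and 0.30, inside the cloud.

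Among targets of YAP and TAZ, some were far higher in HSCs, some differed little and some were listed at or near 0. The list held 23 genes widely used as readouts of YAP and TAZ, Lats2 among them, and 14 passed the minimum mean. For GFP- stem cells against MPPs, 8 of 14 were 2-fold or more higher, beside 11.6% of all genes, and 1 was lower, beside 5.53%. Their median log2 ratio was 1.37, beside -0.01 over all genes. For GFP+ stem cells against MPPs, 9 of 14 were 2-fold or more higher, beside 13.7% of all genes, and 0 lower, beside 8.6%, with a median of 1.57, beside 0.01. Amotl2, Cyr61, Ptpn14 and Fjx1, at 16, 20, 37 and 6 in MPPs, passed the minimum only through the HSC libraries. The minimum thus favoured targets that are high in HSCs, and the counts support nothing further. Over all listed genes above 0 in any library, with no minimum, the medians were 0.59 and 0.87. Lists of this kind are drawn up from cultured cells of solid tissues, and several members also answer to other signals.

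Amotl2, an angiomotin that binds YAP and TAZ and holds them at junctions, stood at 16 in MPPs, 1273 in GFP- stem cells and 1455 in GFP+ stem cells (79.6-fold and 90.9-fold). Cyr61 (now Ccn1), a secreted matrix protein that is also an immediate-early gene, stood at 20, 1289 and 1134 (64.5-fold and 56.7-fold). Ptpn14, a phosphatase that binds YAP, stood at 37, 855 and 1404 (23.1-fold and 37.9-fold). For these genes both HSC libraries lay far above the MPP library. Fjx1, the relative of the fly gene four-jointed, stood at 6, 84 and 117. Among the more abundant targets, the receptor kinase gene Axl stood at 201, 678 and 976, and Arhgef17 at 151, 589 and 857. Crim1 stood at 676, 1965 and 2014 and the membrane repair gene Myof at 1187, 2732 and 3538. Ajuba, a LIM protein that restrains LATS kinases, stood at 130, 259 and 360, which was just under the 2-fold rule in GFP- stem cells and past it in GFP+ stem cells.

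Other standard targets did not follow. Ctgf (now Ccn2), among the most used readouts of YAP, stood at 6 in MPPs, 4 in GFP- stem cells and 1 in GFP+ stem cells, and Ankrd1 was listed at 0 in all 3. F3, Foxf2, Igfbp3, Tgfb2, Nt5e, Rbms3 and Ccdc80 were also below the minimum mean, none of them above 34 in any library. Nuak2, a kinase of the AMPK family, ran the other way, at 1454 in MPPs, 703 in GFP- stem cells and 849 in GFP+ stem cells. Gadd45a (703, 632 and 535), Dock5 (1281, 1229 and 1110) and Asap1 (3406, 3940 and 3650) differed little. Between the HSC fractions 0 of 14 targets were 2-fold apart, where 0.41% of all genes were higher and 0.87% lower by that much, and the widest ratio was that of Ptpn14, at 1.64.

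**Figure D3:**
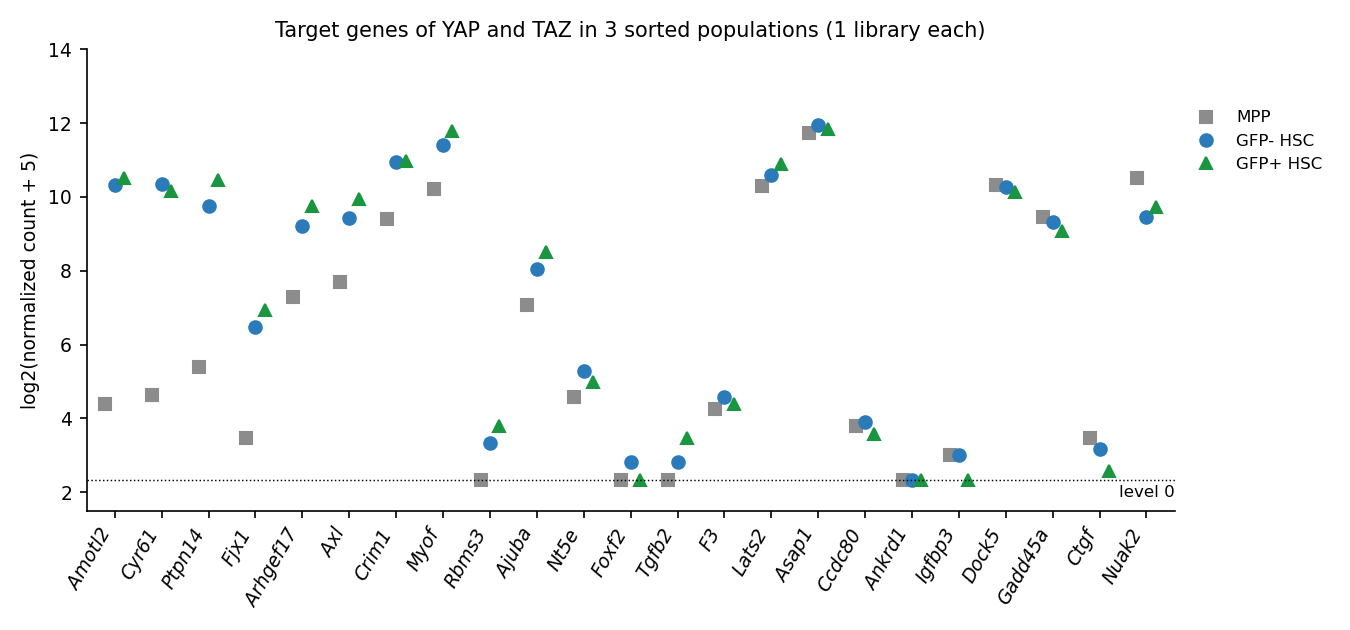
Levels of the 23 listed target genes of YAP and TAZ on the log2(normalized count + 5) scale, ordered by the ratio of GFP- stem cells to MPPs, with 1 point per library and the dotted line at a level of 0. Amotl2, Cyr61 and Ptpn14 at the left are at 16 to 37 in MPPs and at 855 or more in both HSC libraries, whereas Ankrd1 lies on the dotted line and Nuak2 at the right is highest in MPPs.

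The core GGAATG was read in the starts of the targets too, because the most widely separated of them can be set beside Wwtr1. Of 16 target genes with a RefSeq window, 7 held it, Cyr61, Ankrd1, Amotl2, Axl, Ajuba, Crim1 and Ptpn14. Target lists are drawn up partly from genes that TEAD factors bind, so this share is not independent of the list. Ankrd1 held the core and was listed at 0 in all 3 libraries. The core was also held by 2 of 3 kinase adaptor genes, Sav1 and Mob1a, which were under 2-fold apart. Of 4 VGLL cofactor genes 3 held it: Vgll1 at 0 throughout, Vgll3 at 2 or less, and Vgll4, under 2-fold apart. In the other lists it was held by 4 of 11 junction binders, 3 of 19 upstream regulators, 1 of 11 STRIPAK phosphatase genes, 0 of 7 genes of the 14-3-3 list and 0 of 2 NDR kinases. Of the genes compared, 12.4% of the 9617 with a window held the core. The share was 19% of 1053 genes 2-fold or more higher in GFP- stem cells than in progenitors. It was 8.98% of 501 genes 2-fold or more lower and 11.8% of 8063 genes less than 2-fold apart. Base composition of the windows was not matched, and no cause of these shares was tested. The windows of the 3 targets with the highest ratios are shown with the core in capitals, at chr9:102717727-102717756 (plus strand) for Amotl2, chr3:145650071-145650100 (minus strand) for Cyr61 and chr1:189728110-189728139 (plus strand) for Ptpn14, where it reads as CATTCC.
Amotl2: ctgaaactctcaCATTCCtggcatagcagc
Cyr61: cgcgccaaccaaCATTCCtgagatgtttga
Ptpn14: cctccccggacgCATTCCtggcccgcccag

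The core ended 60 bases before the RefSeq start used for Amotl2, 98 before that of Cyr61 and 141 before that of Ptpn14. The start used for Amotl2 lies inside the gene's span, which begins at 102717091, so it belongs to a shorter transcript.

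Among genes of proteins that bind YAP, TAZ or LATS at junctions, Amotl2, Ptpn14 and Wtip lay farthest apart. Of 15 listed genes 13 passed the minimum, and 5 were 2-fold or more higher in GFP- stem cells than in progenitors and 0 lower, beside 11.6% and 5.53% of all genes. Of the 5, Amotl2, Ptpn14 and Wtip, at 16, 37 and 30 in MPPs, passed the minimum only through the HSC libraries. The count therefore supports nothing further. The median log2 ratio was 0.56, beside -0.01 over all genes. Amotl2, Ajuba and Ptpn14 belong to this list as well. Wtip, a LIM protein of the Ajuba family, stood at 30 in MPPs, 207 in GFP- stem cells and 360 in GFP+ stem cells (6.9-fold and 12-fold). The junction scaffold genes Tjp1 (ZO-1) and Inadl (now Patj) stood at 262, 753 and 659 and at 1072, 2218 and 2818. The angiomotin gene Amot was nearly level at 287, 317 and 261, and Amotl1 was listed at 0, 10 and 5, both below the separation of Amotl2. Limd1 (3915, 3646 and 3786) and the polarity genes Scrib (2003, 1863 and 1477) and Llgl1 (3164, 2808 and 2702) differed by less than 2-fold.

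The kinase adaptors, STRIPAK genes and 14-3-3 genes that passed were under 2-fold apart between the gates. The kinase adaptors Sav1 (416, 362 and 387 in MPPs, GFP- and GFP+ stem cells) and Mob1a (2518, 2500 and 2392) differed little, and Mob1b stood at 413, 735 and 659, 1.78-fold higher in GFP- stem cells. None of 13 STRIPAK genes, which encode a phosphatase complex that switches MST kinases off, was 2-fold apart in either comparison with MPPs, where 11.6% and 13.7% of all genes were higher and 5.53% and 8.6% lower by that much. Their log2 ratios of GFP- stem cells to MPPs ran from -0.42 to 0.53. None of 11 genes of 14-3-3 proteins, casein kinase 1 and the ubiquitin ligase that marks YAP and TAZ was 2-fold apart either, beside the same shares of all genes, with a range of -0.47 to 0.43. Vgll4, whose protein competes with YAP and TAZ for TEAD factors, stood at 1534, 2127 and 2255, and Vgll1 and Vgll2 were listed at 0 in all 3 libraries. Of the NDR kinases, relatives of LATS, Stk38l stood at 219, 483 and 549, 2.21-fold and 2.51-fold higher in the HSC fractions, and Stk38 at 3400, 2850 and 2779.

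Upstream regulators were 2-fold apart about as often as genes at large. Of 23 listed genes 19 passed, and 2 were 2-fold or more higher and 1 lower in GFP- stem cells than in progenitors, which is 10.5% higher beside 11.6% of all genes, with 5.53% of all genes lower. The median log2 ratio was 0.12, beside -0.01 over all genes. Rassf6, of a family that binds MST kinases, stood at 49 in MPPs, 291 in GFP- stem cells and 269 in GFP+ stem cells, and its relative Rassf4 at 2426, 1191 and 1068. The log2 ratio of Rassf4 for GFP- stem cells against MPPs was -1.02, and it was -0.95 with libraries rescaled to equal totals, under the 2-fold rule. Among the MAP4K family, which can act on LATS beside the MST kinases, Tnik stood at 305, 676 and 575, Map4k3 at 610, 1088 and 1318, Map4k2 at 1696, 2605 and 3428 and Map4k4 at 1418, 871 and 704. The log2 ratio of Tnik to MPPs was 1.14 in GFP- stem cells and 0.90 in GFP+ stem cells, and the first was 0.63 with the trend on length and GC content removed. Nf2, which encodes Merlin, stood at 3209, 2999 and 2458, which is 1.07-fold and 1.31-fold lower in the HSC fractions. The atypical cadherin genes were low: Fat1 stood at 1, 88 and 50, Dchs1 at 1, 11 and 24 and Fat4 at 0, 2 and 4.

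**Figure D4:**
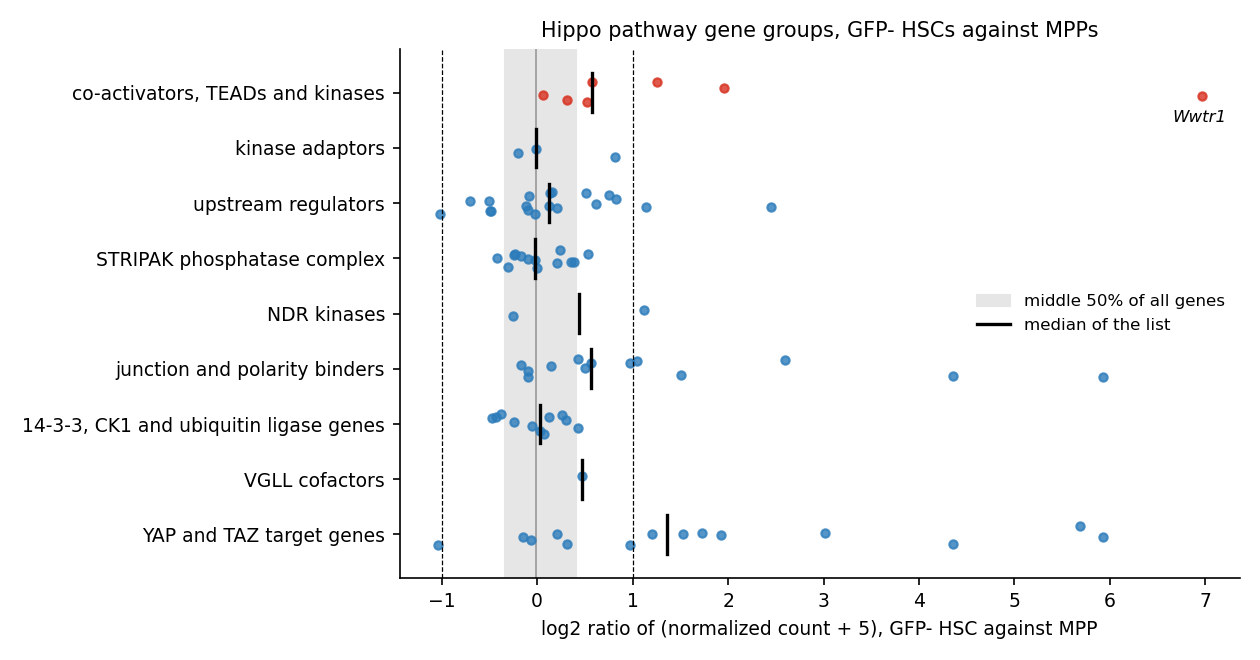
Log2 ratio of (normalized count + 5) of GFP- stem cells to MPPs for each gene that passed the minimum mean, by group of the pathway, with the median of each group as a black bar, the middle 50% of all genes in grey and dashed lines at 2-fold. Target genes and junction binders reach 5.93, whereas STRIPAK genes stay between -0.42 and 0.53.

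Between the HSC fractions, 0 of the 72 pathway genes outside the core set that passed were 2-fold apart, a count near the background of 0.41% of all genes higher and 0.87% lower. The highest ratios of GFP+ to GFP- stem cells were those of Wtip (1.74), Ptpn14 (1.64) and Arhgef17 (1.46), and the lowest belonged to the 14-3-3 gene Ywhah (2374 in GFP+ and 3071 in GFP- stem cells), Scrib and Map4k4. The median log2 ratio of the 72 genes was 0.06, beside 0.01 over all genes.

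The genes with levels most like those of Wwtr1 were found by the Euclidean distance between centred log2 profiles over the 3 libraries. The search began from the 11197 genes that averaged 100 or more, and predicted or unnamed gene models among them were left out. The nearest was Sdpr (now Cavin2), a caveola gene, at 19 in MPPs, 3104 in GFP- stem cells and 3599 in GFP+ stem cells and a distance of 0.06. It was followed by Rhoj (3, 782 and 1069), the secreted Wnt antagonist gene Sfrp1 (1, 764 and 1180), the junction gene Jam2 (5, 948 and 1231) and the retinoic acid genes Cyp26b1 (0, 446 and 685) and Rarb (2, 624 and 842). The cilium gene Evc (0, 428 and 691) and the sort gene Slamf1 were the last of the 8 nearest. A profile over 3 libraries that is near 0 in 1 of them depends on the constant added: 3 of the 8 genes stayed among the nearest with 1 added and 2 with 20 added.

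Markers of cells known for TAZ and YAP moved with the gates in part. The 8 endothelial markers summed to 674 in MPPs, 1736 in GFP- stem cells and 2185 in GFP+ stem cells, with Kdr at 18, 444 and 713, Cldn5 at 12, 347 and 411 and Emcn at 496, 727 and 849. Flt4 stood at 27, 72 and 91 and Stab2 at 8, 45 and 48. The endothelial cadherin gene Cdh5 stood at 10, 10 and 3, Plvap at 103, 89 and 65 and Lyve1 at 0, 2 and 5. The 12 stromal markers summed to 2757, 1340 and 1580. The highest sum, in MPPs, rests on Pdgfrb (2472, 589 and 503), and the other 11 summed to 285, 751 and 1077, lowest in MPPs. Col1a2 stood at 28, 457 and 679, Col1a1 at 17, 22 and 294, Cxcl12 at 66, 187 and 29, Pdgfra at 0, 8 and 9, Lepr at 0, 10 and 0, and Lum at 0, 5 and 0. Postn was highest in MPPs, at 117, 3 and 11, and Tagln was level at 53, 50 and 53. Acta2 (1, 1 and 2), Col3a1 (2, 5 and 0) and Dcn (1, 3 and 0) were near 0. The 7 megakaryocyte and platelet markers summed to 1886, 9674 and 5608, most of it Itga2b (1263, 7032 and 4095). The other 6 summed to 623, 2642 and 1513, again lowest in MPPs. Pf4 (166, 1171 and 331), Gp9 (141, 783 and 689), Gp1ba (68, 350 and 281) and Gp1bb (16, 268 and 129) were lowest in MPPs. Ppbp (227, 70 and 83) and Gp6 (5, 0 and 0) were highest there. Exons of Gp1bb share 1902 bases with Sept5 and 867 with the model Gm49601 on the same strand, so its level is uncertain. The 4 epithelial markers summed to 1078, 4107 and 4239, nearly all of it Krt18 (944, 3864 and 3991). Epcam stood at 65, 146 and 156, Krt8 at 18, 96 and 92 and Cdh1 at 51, 1 and 0. The part of any of these cells in the levels of Wwtr1 and its targets was not tested.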

How the data were processed

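The authors deposited 1 table of normalized counts per gene, held as whole numbers and treated here as a score, because rounding left no read steps from which reads could be recovered. STAR, DESeq2 and mm10 were used, per the submitters' processing notes, and the sources used here name no versions, annotation or counting tool. RNA of sorted cells was made into cDNA with the SMART-seq v4 kit, per the labels' protocols, a chemistry that does not mark strand. The columns named neg and pos were read as the GFP- and GFP+ HSC libraries. Of 23420 rows, 27 held a date in place of a symbol and were dropped, which removed 0.212% of all summed levels.

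Ratios were log2 of (level + 5), for 11951 genes with a mean of at least 50 over the 3 libraries, called at 2-fold. Single libraries allowed no test, and the sequencing depth is unknown. The pathway genes and lists were chosen with earlier results of these data known. Named genes were the 10 Hippo genes, up to 4 members per list that were 2-fold apart in GFP- HSCs against MPPs, the 3 highest and 3 lowest between the HSC fractions, the 8 genes most like Wwtr1 and sort genes. Other members were named to describe a list, after their values were seen. Transcript lengths came from GENCODE M21, found for 99.3% of genes compared, and coordinates and promoter windows from RefSeq on GRCm38. Stk26 (Mst4) was a listed gene not analysed here. The settings varied were the constant added (1 or 20), the lowest mean allowed (10, 200 or no limit), scaling to the same total or upper quartile, thresholds of 1.5-fold and 4-fold, and removal of trends on mean level (lowess) or on length and GC content. The 2-fold rule was tested on simulated data. Python 3.11.15, numpy 2.4.6, pandas 2.3.3 and statsmodels 0.14.6 were used.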

Additional observations from a re-analysis of the deposited data

How the results depend on the processing

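With 1 library per population, no alternative replaces a replicate, and no paired analysis was possible because no population has a second library. The depth is unknown, which limits low genes such as Yap1, Tead4 and Wwtr1 in MPPs. For GFP- HSCs against MPPs, 3 of 7 Hippo genes were at least 2-fold higher, beside 11.6% of all genes. With a minimum mean of 10 Yap1 joined them, and with a minimum of 200 Tead3 left. No share of all genes is given for these 2 minimums. At 4-fold the count was 1 of 7, beside 601 of the 11951 genes. For GFP+ HSCs against MPPs the count of 3 of 7 became 6 of 7 at 1.5-fold. Over all 11951 genes, that change of threshold raised the higher genes from 1636 to 2660. No Hippo gene was 2-fold lower under any of these alternatives in any comparison. Of the 8 genes most like Wwtr1, 3 remained with a pseudocount of 1 and 2 with a pseudocount of 20. Counts over all genes moved more between the HSC fractions, where the main setting gave 49 higher and 104 lower. They became 9 and 57 with a minimum mean of 200, 164 and 194 with a minimum of 10 and 356 and 359 with none. Another minimum also changes how many genes are compared, so counts at other minimums do not show how far the called share moved. The counts became 23 and 62 with a pseudocount of 20, 292 and 358 at 1.5-fold and 4 and 7 at 4-fold. With the trend on mean level removed, 32 were higher. For GFP- HSCs against MPPs the 1384 higher and 661 lower genes became 2320 and 1172 with no minimum, 2310 and 1601 at 1.5-fold and 601 and 240 at 4-fold, and 854 were higher with a minimum of 200. For GFP+ HSCs against MPPs the 1636 and 1028 became 2647 and 1576, 2660 and 2144, and 702 and 307 under the same 3 settings, and 1049 were higher with a minimum of 200.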
